A study of Mus musculus with 6 samples.

Results

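Matrix metalloproteinase (MMP) genes and genes of the tissue inhibitors of metalloproteinases (TIMPs) were described by their RNA levels in C2C12 cells, a mouse myoblast line that fuses into myotubes in low-serum medium. The 10 genes were taken by name, namely Mmp2, Mmp3, Mmp9, Mmp10, Mmp13, Mmp14, Mmp19, Timp1, Timp2 and Timp3, and all 10 were among the 11835 genes of the table. There were 7 MMP genes and 3 TIMP genes, with 14 listed transcripts. The rule that lists them uses gene names and no cut on values, though the list was drawn up with earlier results of these data known.

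RNA was sequenced from 6 libraries of cells grown in differentiation medium with horse serum. In 3 libraries the cells had received a negative control siRNA (siNC), and in 3 they had received siRNA against Cnn3 (siCNN3), which encodes the actin-binding protein calponin 3. No other treatment is named for either group, and the cells come from 1 line. The labels name the cells as myotubes and the study's methods as differentiating myoblasts, and neither says which of the 3 CNN3 siRNAs of the study was used for sequencing. Values are FPKM, fragments per kilobase of transcript scaled to the fragments of the library, summed over the transcripts of a gene, so levels of different genes can be set side by side per length.

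MMPs are zinc proteases that are made as inactive proenzymes and that cleave collagens, other matrix proteins and growth factor precursors outside the cell. TIMPs bind the active site of MMPs and block them, and TIMP2 also has a second role, since with MMP14 it forms the complex at the cell surface that activates proMMP2. In muscle, gelatinases and MMP14 are known for remodeling the matrix around satellite cells and fibers during migration, fusion and repair.

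The targeted gene was examined first. Cnn3 was at 62.8, 61.4 and 62.8 FPKM in the siNC libraries and at 19.0, 39.2 and 25.6 FPKM in the siCNN3 libraries. The groups did not overlap, and the siCNN3 mean was 44.8% of the siNC mean. The log2 fold change of log2(FPKM + 1) was -1.19 (SE 0.242, limma moderated test, Benjamini-Hochberg adjusted p = 0.0669, n = 3 and 3), and replicate 2 of siCNN3 held the most Cnn3 RNA of its group. Without that library the log2 fold change was -1.46 (adjusted p = 0.0477 by limma). Among the muscle markers, Des, the gene of the muscle intermediate filament desmin, was at 113.0 to 125.1 FPKM in siNC and 84.3 to 103.2 FPKM in siCNN3 (log2 fold change -0.36, adjusted p = 0.196). The levels of Myod1, Myog and Myh3 were well below that of Des in both groups. Myod1, a myogenic regulator, was at 1.93 to 3.10 FPKM and at 1.37 to 1.57 FPKM (log2 fold change -0.42, adjusted p = 0.312, and -0.27 without replicate 3 of siNC), and Myog, which drives the myotube program, was at 1.23 to 3.07 FPKM and at 0.485 to 0.907 FPKM (log2 fold change -0.85, adjusted p = 0.159). Myh3, embryonic myosin heavy chain, fell from 2.41 ± 0.564 to 0.302 ± 0.131 FPKM (SD, n = 3 each, log2 fold change -1.38, adjusted p = 0.0193), a call that was lost without replicate 3 of siNC, replicate 1 of siCNN3 or replicate 2 of siCNN3 (limma, adjusted p = 0.0945, 0.0961 and 0.111). With a pseudocount of 0.1 the log2 fold changes of Myh3 and Myog were -2.67 and -1.42. Sarcomere genes were not all at such levels, since Acta1, skeletal muscle alpha-actin, was at 24.6 to 33.8 FPKM in siNC and fell to 5.35 to 6.43 FPKM in siCNN3 (log2 fold change -2.12, adjusted p = 0.0047 by limma). Myf5, a regulator of undifferentiated myoblasts, differed in the other direction, with 3.55 to 5.64 FPKM and 5.40 to 12.95 FPKM, which overlapped (log2 fold change 0.88, adjusted p = 0.238 by limma).

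The promoters are shown because they separate the family into a pair of layouts. RefSeq promoters of GRCm38.p6, running from 250 bases before to 50 bases after the start of a gene, were found for 7 of the 10 genes, and those of Mmp2, Mmp9 and Mmp19 were not matched. Both strands were searched for the AP-1 site TGAGTCA, the TATA box TATAAA, the GC box GGGCGG, the E-box CAGCTG and the interferon response core, which is GAAA, any 2 bases and GAAA again. Capitals mark the matches, none of which overlap each other.
Mmp3 (chr9:7445572-7445871, plus strand): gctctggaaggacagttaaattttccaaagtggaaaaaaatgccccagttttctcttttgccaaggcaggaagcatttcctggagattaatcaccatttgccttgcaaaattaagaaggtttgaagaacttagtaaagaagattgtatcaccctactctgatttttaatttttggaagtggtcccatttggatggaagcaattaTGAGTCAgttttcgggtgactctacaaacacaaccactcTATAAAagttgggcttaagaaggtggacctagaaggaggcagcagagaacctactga
Mmp13 (chr9:7272264-7272563, plus strand): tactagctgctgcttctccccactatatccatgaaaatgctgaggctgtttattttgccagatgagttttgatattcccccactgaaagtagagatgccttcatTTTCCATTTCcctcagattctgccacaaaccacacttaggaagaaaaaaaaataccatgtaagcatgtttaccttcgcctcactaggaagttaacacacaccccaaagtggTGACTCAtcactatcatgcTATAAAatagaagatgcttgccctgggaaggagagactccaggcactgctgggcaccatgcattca
Mmp14 (chr14:54431348-54431647, plus strand): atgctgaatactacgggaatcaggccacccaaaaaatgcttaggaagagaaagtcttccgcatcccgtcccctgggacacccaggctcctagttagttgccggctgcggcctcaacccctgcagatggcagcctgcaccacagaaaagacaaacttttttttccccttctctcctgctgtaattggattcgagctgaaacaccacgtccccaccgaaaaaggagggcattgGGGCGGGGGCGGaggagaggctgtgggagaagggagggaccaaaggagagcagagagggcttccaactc
Timp2 (chr11:118355362-118355661, minus strand): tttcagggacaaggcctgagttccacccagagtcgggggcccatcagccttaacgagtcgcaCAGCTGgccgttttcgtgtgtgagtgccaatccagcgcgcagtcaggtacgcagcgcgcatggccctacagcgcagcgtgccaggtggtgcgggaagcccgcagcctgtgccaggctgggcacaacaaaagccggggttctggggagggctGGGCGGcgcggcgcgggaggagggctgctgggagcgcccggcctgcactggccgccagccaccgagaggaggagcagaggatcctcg

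The promoters of Mmp3, Mmp10 and Mmp13, neighbors on chromosome 9, each held 1 AP-1 site followed by 1 TATA box and no GC box. The AP-1 site began at position -46 in Mmp3, -63 in Mmp10 and -35 in Mmp13, counted from the RefSeq start, and the TATA box at -7, -29 and -16. Those of Mmp14, Timp1, Timp2 and Timp3 held 1 or 2 GC boxes and neither an AP-1 site nor a TATA box. In Mmp14 the pair of GC boxes stood directly next to each other at -19 and -13. Mmp13 also had 1 interferon response core, at -146, and Timp2 had 1 E-box, at -188. Of 27025 promoters of the same length, 5.17% held the AP-1 site, 14.2% the TATA box, 35.9% the GC box, 16.1% the E-box and 3.49% the interferon response core. A match in these letters describes the sequence and is not a measured binding site. The distance of the TATA letters from the RefSeq start differed, and whether they act at that start was not tested.

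The levels of these 7 genes fell into the same sets. Timp1, Timp2, Timp3 and Mmp14, with GC boxes, were at 47.0 to 296.3 FPKM in siNC, compared with 0.534 to 1.13 FPKM for Mmp3, Mmp10 and Mmp13. The latter genes are neighbors in the genome and thus not independent cases. The part of the promoters in these levels was not tested. In order of siNC means the genes ran Timp1, Timp2, Mmp14, Mmp2, Timp3, Mmp19, Mmp9, Mmp3, Mmp10 and Mmp13. The ranges of Timp1 and Timp2 overlapped, as did those of Mmp14 and Mmp2, of Mmp3 and Mmp10, and of Mmp10 and Mmp13, so these neighbors cannot be placed in order. The siNC mean of Timp1 was above that of 98.6% of the 11593 tested genes, that of Mmp14 above 93.4%, that of Mmp9 above 48.4% and that of Mmp3 above 7.01%. In siCNN3 the order of means was Timp1, Timp2, Mmp2, Timp3, Mmp14, Mmp19, Mmp9, Mmp10, Mmp3 and Mmp13. The range of Timp3 overlapped those of Mmp2 and Mmp14, and that of Mmp10 overlapped those of Mmp3 and Mmp13.

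**Figure D1:**
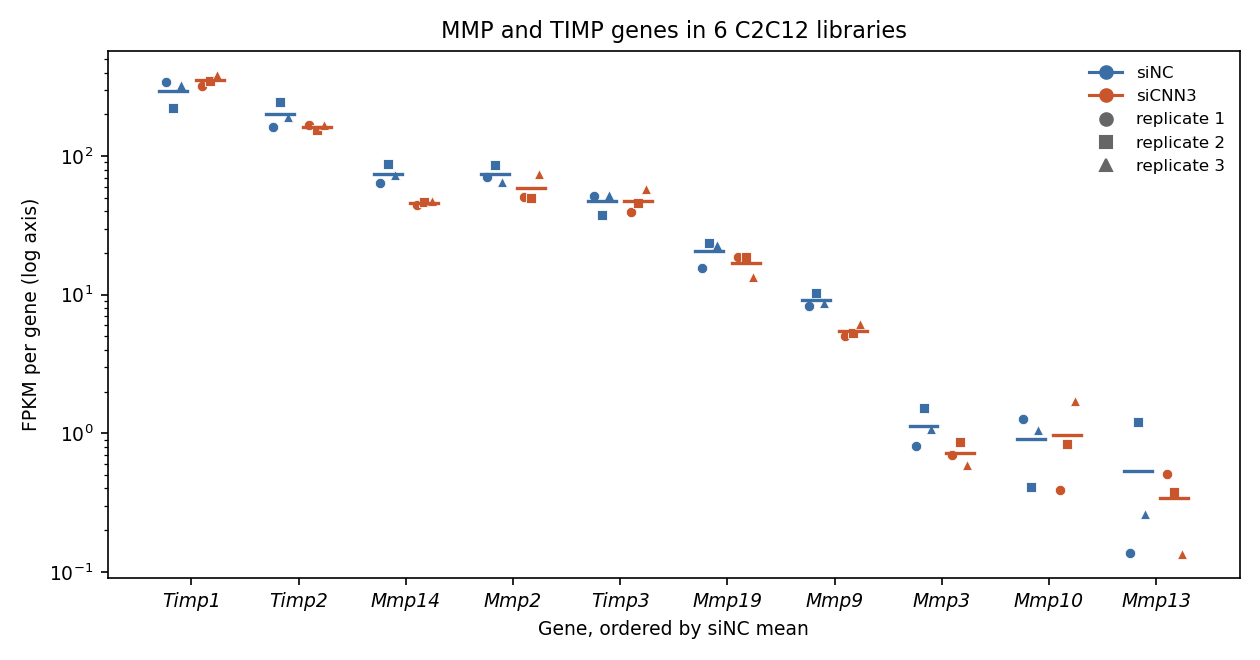
FPKM per gene on a log axis for the 10 MMP and TIMP genes, ordered by siNC mean, with 1 point per library and a bar at each group mean. Timp1 and Timp2 lie highest in both groups, Mmp3, Mmp10 and Mmp13 lie near or below 1 FPKM, and the siCNN3 points of Mmp14 and Mmp9 lie below all siNC points.

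Of the proteases, Mmp14 and Mmp9 had the lowest p and groups that did not overlap. Mmp14 encodes a membrane-anchored MMP (MT1-MMP) that cleaves collagen at the cell surface and activates proMMP2. The gene lies on the plus strand of chromosome 14 of GRCm38, from 54431612 to 54445364, and its listed transcript has 10 exons. Its level in siNC was 63.8, 87.2 and 73.6 FPKM, compared with 44.6, 46.4 and 47.6 FPKM in siCNN3. The 3 siCNN3 libraries lay close together and below all siNC libraries, which were spread more widely, with replicate 2 highest. The means were 74.9 ± 11.8 and 46.2 ± 1.53 FPKM (SD, n = 3 each), so siCNN3 was at 61.7% of siNC. The log2 fold change was -0.67 (SE 0.137, 95% interval -0.997 to -0.35), which missed the threshold of 0.05 after Benjamini-Hochberg adjustment over 11593 genes (limma, adjusted p = 0.0666). It passed with median-of-ratios scaling (adjusted p = 0.0309) and with quantile normalization (adjusted p = 0.0268), and the adjusted p ranged from 0.0268 to 0.257 over 16 alternatives. Of all tested genes, 306 had a lower p.

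The genes with a pattern most like that of Mmp14 over the 6 libraries were Setd7, Klhl5 and Dctn1. Likeness was measured as the root mean square difference of log2(FPKM + 1), each gene taken as its deviation from its own siNC mean, and was 0.0368, 0.0614 and 0.0690. Setd7, a lysine methyltransferase gene, was at 15.3, 22.2 and 18.8 FPKM in siNC and 11.2, 11.8 and 11.4 FPKM in siCNN3. Klhl5 had a log2 fold change of -0.70 and Dctn1, a dynactin subunit gene, one of -0.64 (adjusted p = 0.101 and 0.0815 by limma), the latter -1.15 with each transcript tested on its own. Like Mmp14, Setd7 and Klhl5 passed the threshold with median-of-ratios scaling and with quantile normalization, and Dctn1 passed with quantile normalization. Setd7, Klhl5 and Dctn1 were picked for their likeness over the same 6 libraries. Their like differences and calls follow largely from that choice and are no further evidence.

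Mmp9 encodes gelatinase B, a secreted protease of denatured collagen and type IV collagen. It lies on the plus strand of chromosome 2, from 164940780 to 164955850. Its level was 8.26, 10.2 and 8.74 FPKM in siNC and 5.01, 5.32 and 6.10 FPKM in siCNN3. The groups did not overlap, and replicate 2 was again the highest siNC library. The means of 9.08 ± 1.03 and 5.48 ± 0.557 FPKM (SD, n = 3 each) placed siCNN3 at 60.3% of siNC. The log2 fold change was -0.64 (SE 0.147, 95% interval -0.99 to -0.29) and did not pass after adjustment (limma, adjusted p = 0.0902, 0.0577 to 0.329 over 16 alternatives).

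The differences of Mmp14 and Mmp9 were smaller without replicate 2 of siNC. Each was then -0.56 on the log2 scale, with an adjusted p of 0.141 for Mmp14 and 0.234 for Mmp9 (limma). That library was the highest of its group for 7 of the 10 genes, all MMP genes but Mmp10 as well as Timp2, and the lowest for the other 3, Mmp10, Timp1 and Timp3. It also held the most interferon response RNA of its group, with a sum of 647.1 FPKM over 25 genes, compared with 81.2 and 240.5 FPKM in the other siNC libraries. Its macrophage and blood markers, mostly globin genes, summed to 680.3 FPKM, compared with 248.9 and 251.7 FPKM. The part of either in the values of Mmp14 and Mmp9 was not tested.

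In the siCNN3 group replicate 3 stood apart. Across tested genes its log2(FPKM + 1) correlated (Pearson) at r = 0.947 and 0.956 with the other siCNN3 libraries, which correlated at r = 0.980 with each other, and at r = 0.941 to 0.951 with the siNC libraries, genes not being independent replicates. Its interferon response sum was 3028 FPKM, compared with 5546 and 5361 FPKM. For 6 of the 10 genes, Mmp2, Mmp9, Mmp10, Mmp14, Timp1 and Timp3, it was the highest of its group. Without it the log2 fold changes were -0.69 (adjusted p = 0.0633 by limma) for Mmp14 and -0.70 (adjusted p = 0.0593 by limma) for Mmp9.

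Mmp2 encodes gelatinase A, the MMP that the complex of MMP14 and TIMP2 activates. It lies on chromosome 8, from 92827291 to 92853420. Mmp2 was at 70.1, 86.9 and 64.8 FPKM with siNC, compared with 50.8, 49.6 and 74.8 FPKM with siCNN3. Replicates 1 and 2 of siCNN3 lay below all siNC libraries, whereas replicate 3 lay among them. The log2 fold change was -0.35 (SE 0.195, 95% interval -0.81 to 0.11, adjusted p = 0.429, limma), so a decrease of that size could not be told apart from the spread between libraries. With single libraries left out it ran from -0.23 without replicate 2 of siNC to -0.54 without replicate 3 of siCNN3.

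Mmp19 encodes a secreted MMP that cleaves basement membrane proteins, and it lies on chromosome 10, from 128790910 to 128800824. It was at 15.6, 23.4 and 22.8 FPKM in the siNC libraries, compared with 18.8, 18.6 and 13.4 FPKM in the siCNN3 libraries. The groups overlapped through replicate 1 of siNC (log2 fold change -0.26, SE 0.209, 95% interval -0.76 to 0.23, adjusted p = 0.582, limma). That value was -0.11 without replicate 3 of siCNN3 and -0.44 without replicate 1 of siNC. Of its pair of listed transcripts, the longer, of 3402 bases, held between 68.0% and 79.7% of the FPKM of the gene in each library.

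Mmp3 and Mmp10 encode stromelysins, which cleave proteoglycans, fibronectin and other proMMPs, and Mmp13 encodes the main fibrillar collagenase of rodents. All 3 carry the AP-1 and TATA letters in their promoters. RNA of Mmp3 (chromosome 9, 7445822 to 7455975) stood at 0.802, 1.53 and 1.07 FPKM after control siRNA and 0.697, 0.869 and 0.589 FPKM after CNN3 siRNA. Only replicate 1 of siNC lay within the siCNN3 range, and the log2 fold change was -0.30 (SE 0.184, 95% interval -0.74 to 0.13, adjusted p = 0.472, limma). It was -0.17 without replicate 2 of siNC and -0.56 with a pseudocount of 0.1. Mmp10 (chromosome 9, 7502352 to 7510240) stood at 1.26, 0.410 and 1.06 FPKM with siNC, compared with 0.392, 0.840 and 1.70 FPKM with siCNN3. Each group held both low and high libraries, the log2 fold change was 0.03 (SE 0.299, 95% interval -0.68 to 0.73, adjusted p = 0.977, limma), and its sign turned with single libraries left out. Mmp13 (chromosome 9, 7272514 to 7283331) reached 0.137, 1.20 and 0.260 FPKM in the siNC libraries, compared with 0.511, 0.379 and 0.135 FPKM in the siCNN3 libraries. It was the 1 gene of the 10 with a mean below 0.5 FPKM and was not tested by limma, and an exact two-sided permutation test over the 6 libraries gave p = 0.8. At values this low, log2(FPKM + 1) understates a change, and the read depth behind them is unknown.

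Among the inhibitors, none had groups that stood apart. Timp1 encodes a secreted inhibitor that binds proMMP9, and it lies on chromosome X, from 20870166 to 20874735. It had the highest mean of the 10 genes in both groups, at 343.3, 221.6 and 324.1 FPKM after control siRNA and 321.9, 350.6 and 386.6 FPKM after CNN3 siRNA. In replicate 2 of siNC, however, Timp2 was higher, at 244.7 FPKM. The siNC mean of 296.3 ± 65.4 FPKM includes replicate 2, the lowest of all 6 libraries, and the siCNN3 mean was 353.0 ± 32.4 FPKM (SD, n = 3 each). The log2 fold change was 0.27 (SE 0.180, 95% interval -0.15 to 0.70, adjusted p = 0.508, limma) and 0.0776 without replicate 2 of siNC. Its pair of listed transcripts differ little in length, 833 and 883 bases, so how FPKM were divided between them is uncertain. The shorter held 40.2% to 46.3% of the FPKM of the gene across the 6 libraries, with no order by group.

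Timp2 lies on the minus strand of chromosome 11, from 118301069 to 118355740. It was at 162.4, 244.7 and 192.7 FPKM with siNC, compared with 167.5, 154.0 and 167.5 FPKM with siCNN3. The groups overlapped, since replicate 1 of siNC lay among the siCNN3 values, and replicate 2 of siNC stood highest. The log2 fold change was -0.27 (SE 0.157, 95% interval -0.65 to 0.10, adjusted p = 0.442, limma), -0.12 without replicate 2 of siNC, -0.41 without replicate 1 of siNC and -0.41 with quantile normalization. Its short transcript Timp2-202, of 718 bases, had a difference of the other sign. That transcript was at 1.47, 0.725 and 0.495 FPKM in the siNC libraries, compared with 1.73, 2.46 and 1.92 FPKM in the siCNN3 libraries, all higher than in siNC (log2 fold change 0.70, SE 0.258, adjusted p = 0.407 over all transcripts, limma).

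Timp3 encodes the inhibitor that stays bound to the matrix and that also blocks some ADAM and ADAMTS proteases. It lies on chromosome 10, from 86300372 to 86349506. Timp3 was at 51.6, 37.5 and 51.9 FPKM after control siRNA and 39.2, 46.1 and 57.8 FPKM after CNN3 siRNA. The groups overlapped over most of their ranges, and the log2 fold change of 0.02 (SE 0.192, 95% interval -0.44 to 0.47, adjusted p = 0.975, limma) changed sign under other scalings.

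**Figure D2:**
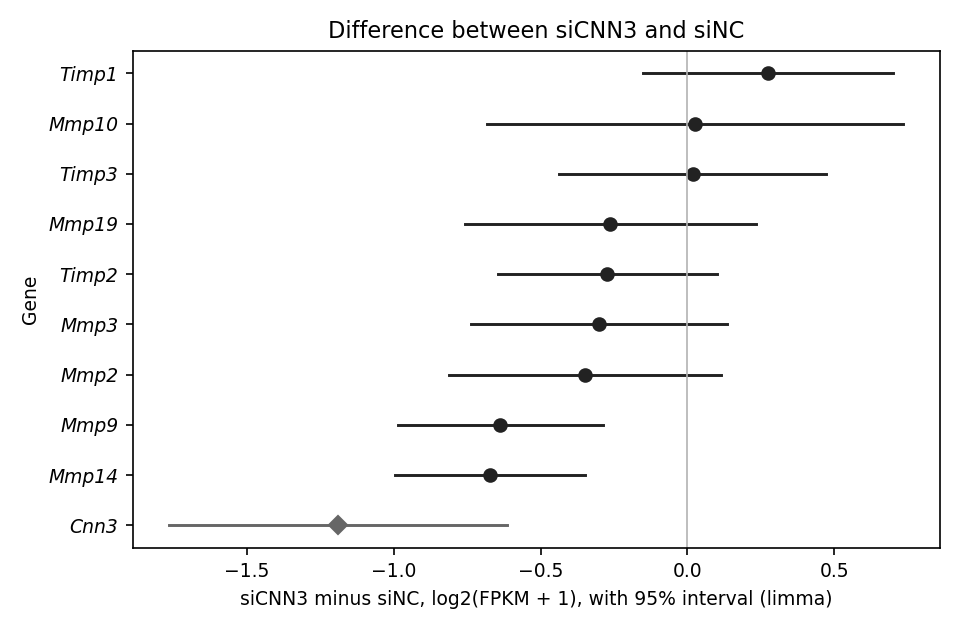
Differences siCNN3 minus siNC in log2(FPKM + 1) with 95% intervals from limma for the 9 tested MMP and TIMP genes, n = 3 libraries per group. The intervals of Mmp14 and Mmp9 lie below 0 before adjustment for the number of genes, and those of the other 7 genes include 0.

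Across the 10 genes, 9 had a mean of at least 0.5 FPKM and were tested. By limma with Benjamini-Hochberg adjustment, 0 of the 9 were called higher and 0 lower, compared with 1.73% of all tested genes called higher and 0.336% called lower. Median-of-ratios scaling and quantile normalization each called 1 lower, Mmp14, and raised the number called lower over all genes from 39 to 63 and 93. A test of each gene with its own variance called 0 of all genes in either direction, so its count of 0 for these genes carries no information about them. At an unadjusted p under 0.05, 2 were lower, Mmp14 and Mmp9, and 0 higher, compared with 6.14% of all tested genes lower and 9.94% higher. The groups did not overlap for the same 2 genes, both lower, and 0 higher, compared with 9.35% and 13.8% of all tested genes. The exact permutation test of either gene gave 0.1, the smallest p that 3 against 3 libraries allow. Of the 9 differences, 6 were below 0 and 3 above 0, and their median was -0.27 on the log2 scale, compared with 0.03 for all tested genes. The 6 tested MMP genes had a median of -0.33 and the 3 TIMP genes one of 0.02. Without replicate 2 of siNC, 8 of the 9 differences were below 0, and the medians were -0.17 for the 9 genes, -0.20 for the MMP genes and -0.12 for the TIMP genes. The median of the 9 genes was -0.41 without replicate 1 of siNC, and that of the TIMP genes ran from -0.13 without replicate 3 of siCNN3 to 0.15 without replicate 1 of siCNN3. With a filter at 5 FPKM the median of the 4 MMP genes left was -0.49.

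Ratios within a library do not change when each library is multiplied by a factor of its own, whereas quantile normalization can change them. The pairs of genes were chosen after their values were seen, and no test was made on them. MMP FPKM summed to 159.9, 210.9 and 172.3 in siNC and to 120.9, 122.0 and 144.4 in siCNN3. All siCNN3 sums were lower than all siNC sums, and Mmp14 and Mmp2 made up 78.7% to 84.8% of the sum in every library. TIMP FPKM summed to 557.3, 503.9 and 568.8 in siNC and to 528.6, 550.8 and 611.8 in siCNN3, with overlap. The MMP sum was therefore 28.7%, 41.9% and 30.3% of the TIMP sum in siNC, and 22.9%, 22.1% and 23.6% in siCNN3. The siCNN3 libraries were all lower and lay within a narrow band, 22.9% ± 0.726 compared with 33.6% ± 7.18 (SD, n = 3 each).

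Mmp14 was at 39.2%, 35.7% and 38.2% of Timp2 in siNC and at 26.6%, 30.1% and 28.4% in siCNN3. This ratio varied little within either group, at 37.7% ± 1.85 and 28.4% ± 1.74 (SD, n = 3 each), and replicate 2 of siNC, highest for both genes, was the lowest of its group here. Mmp14 was at 90.9%, 100.4% and 113.5% of Mmp2 in siNC and at 87.8%, 93.5% and 63.7% in siCNN3, which overlapped. Mmp2 was at 33.6% to 43.2% of Timp2 in siNC and at 30.3% to 44.7% in siCNN3, so the third component of the activation complex did not separate the groups. Mmp9 stood at 2.41%, 4.62% and 2.70% of Timp1 in siNC and at 1.56%, 1.52% and 1.58% in siCNN3, again without overlap. Mmp9 and Mmp14 kept a like proportion to each other, since Mmp9 was at 11.7% to 12.9% of Mmp14 in siNC and at 11.2% to 12.8% in siCNN3.

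**Figure D3:**
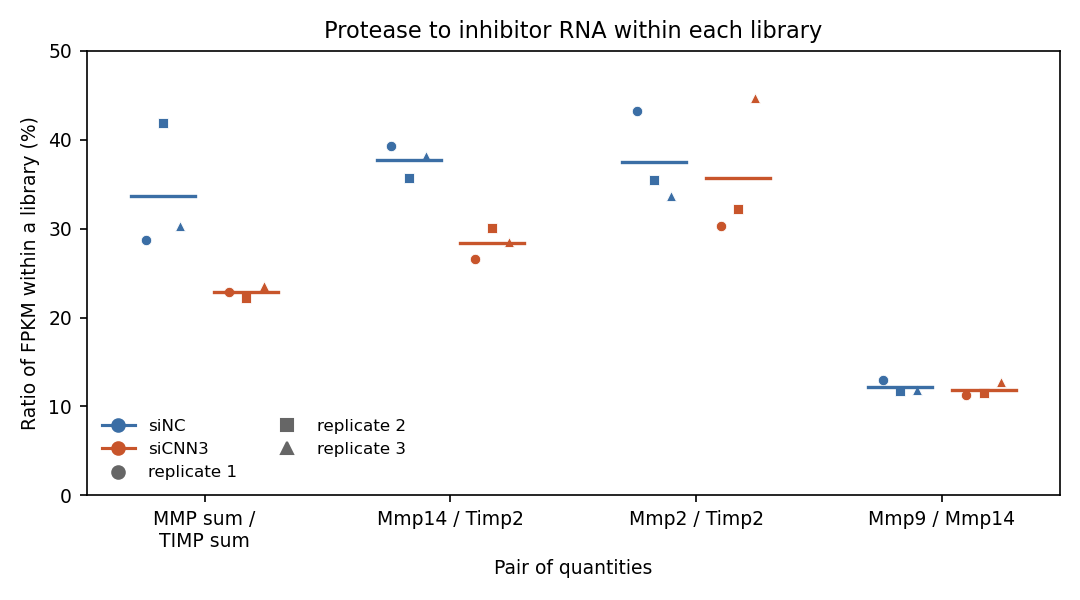
Ratios of FPKM within each of the 6 libraries in percent, for the MMP sum to the TIMP sum, Mmp14 to Timp2, Mmp2 to Timp2 and Mmp9 to Mmp14, with 1 point per library and a bar at each group mean. The first and second ratios are lower in all siCNN3 libraries than in all siNC libraries, and the others overlap.

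Of 16 other MMP genes and Timp4, 2 had a row in the table, and the other 15 had none and were not analysed here. Mmp11, stromelysin 3, was at 30.1, 25.5 and 27.1 FPKM with siNC, compared with 28.9, 26.8 and 35.7 FPKM with siCNN3 (log2 fold change 0.13, SE 0.145, adjusted p = 0.702, limma, and 0.017 to 0.22 with single libraries left out). Mmp28 had a log2 fold change of 0.02 (adjusted p = 0.954), so neither was separated between the groups.

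Genes around the MMP system were taken from lists, with 0.336% of all tested genes called lower and 1.73% called higher as background. Of 16 tested genes for MMP activation and the plasminogen system, 0 were called in either direction. Serpine2, which encodes protease nexin 1, had a log2 fold change of -0.45 (SE 0.129, adjusted p = 0.147, limma, and 0.0492 without replicate 3 of siCNN3), and Lrp1, whose receptor takes up MMPs and their complexes, one of -0.35 (SE 0.103, adjusted p = 0.157, limma). Serpinb2, which encodes plasminogen activator inhibitor 2, had the largest difference of the list, 1.12, in the other direction (SE 0.367, adjusted p = 0.198, limma), and its groups overlapped. The list had 10 differences below 0 and 6 above, with a median of -0.14.

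Of 16 tested genes named ADAM, ADAMTS or ADAMTS-like, related metalloproteinases apart from the ADAMTS-like Adamtsl4, which lacks the protease domain, 1 was called lower and 0 higher. That gene was Adam19, which encodes meltrin beta, at 18.9, 23.5 and 24.9 FPKM in the siNC libraries, compared with 11.1, 11.2 and 12.04 FPKM in the siCNN3 libraries. The siCNN3 libraries lay within 1 FPKM of each other and well below siNC, and Adam19 fell by 0.90 on the log2 scale (SE 0.142, adjusted p = 0.0324, limma). The call was lost without replicate 2 of siNC (adjusted p = 0.0932), replicate 3 of siNC (0.154), replicate 1 of siCNN3 (0.141) or replicate 2 of siCNN3 (0.159). The list's median was -0.20, with 12 differences below 0 and 4 above.

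Of 29 tested matrix genes that MMPs can cleave, 3 were called lower and 0 higher, and 26 differences were below 0, with a median of -0.28. Agrn, which encodes the proteoglycan agrin, had the largest difference in the other direction, 1.15, with 11.3 to 16.6 FPKM in siNC and 25.8 to 48.8 FPKM in siCNN3, but did not pass (adjusted p = 0.0902, limma). The called genes were Col12a1, Col6a2 and Col6a3, which encode chains of collagens XII and VI. Col12a1, a collagen that sits on fibril surfaces, fell from 45.1 ± 12.7 to 17.2 ± 3.24 FPKM (SD, n = 3 each, log2 fold change -1.32, adjusted p = 0.0428, limma). Col6a2 had a log2 fold change of -1.13 (adjusted p = 0.0321) and Col6a3 one of -0.76 (adjusted p = 0.0341). The Col12a1 call was lost with any 1 of the 6 libraries left out (limma, adjusted p = 0.0503 to 0.159). The Col6a2 call was lost without replicate 2 or 3 of siNC or replicate 1 or 2 of siCNN3 (0.0702 to 0.151), and that of Col6a3 without any siNC library or replicate 1 or 2 of siCNN3 (0.0774 to 0.168).

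Of 30 tested inducers of MMP transcription, cytokines and transcription factors known to act on MMP promoters, 3 were called higher and 0 lower, with 23 differences above 0 and a median of 0.25. Of these, Atf3 and Il6 are described. Atf3, an AP-1 family factor of the stress response, was at 9.61, 6.35 and 9.32 FPKM after control siRNA and 32.2, 34.0 and 46.0 FPKM after CNN3 siRNA. Every siCNN3 library was above every siNC library (log2 fold change 2.03, SE 0.206, adjusted p = 0.0099, limma), and the call was lost without replicate 3 of siNC (adjusted p = 0.0579). Il6, an inflammatory cytokine, rose by 1.70 on the log2 scale (adjusted p = 0.0333, limma). The Il6 call was lost without replicate 2 or 3 of siNC or replicate 1 or 2 of siCNN3 (limma, adjusted p = 0.08997 to 0.1401), and also with median-of-ratios scaling (0.0514), with quantile normalization (0.0561) and with each transcript tested on its own (0.0728). Mmp3, Mmp10 and Mmp13, whose promoters hold the AP-1 letters, stayed at or below 1.70 FPKM in all 6 libraries. The part of these letters or of the inducers in their levels was not tested.

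**Figure D4:**
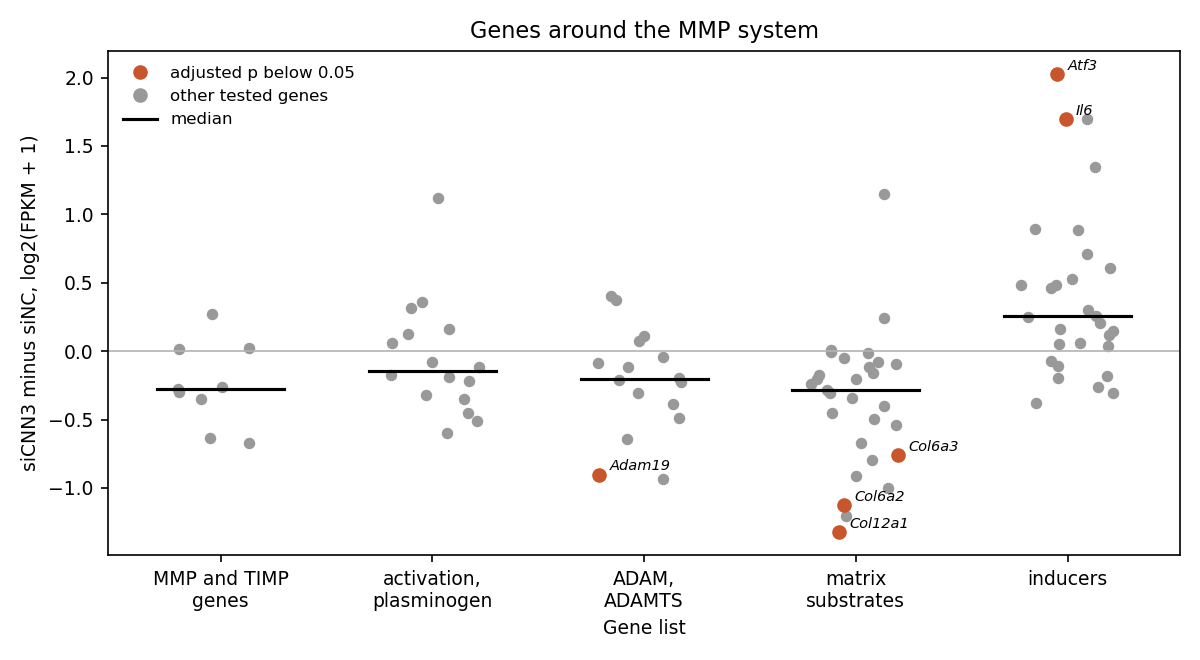
Differences siCNN3 minus siNC in log2(FPKM + 1) for the tested genes of 5 lists, with 1 point per gene, 1 inducer not drawn, larger orange points for genes called by limma at an adjusted p under 0.05, and a bar at each list's median over all its tested genes. No MMP or TIMP gene is called, the called matrix and ADAM genes lie below 0, and the called inducers drawn, Atf3 and Il6, lie above 0.

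Markers of cell types and states were set beside these values, although all libraries come from a cultured myoblast line. By limma, 1.73% of all tested genes were called higher and 0.336% lower. The interferon response genes, 18 of 25 called higher, summed to 81.2 to 647.1 FPKM in siNC and to 3028 to 5546 FPKM in siCNN3. Muscle markers, with 4 of 11 tested genes called lower, Acta1, Mylpf, Tnnt3 and Myh3, summed to 189.1 to 223.6 FPKM and to 119.9 to 136.2 FPKM. Of 14 macrophage and blood markers 7 were in the table, with 2 called lower, Hbb-bs and Hbb-bt, and their sums were 248.9 to 680.3 FPKM in siNC and 66.3 to 91.9 FPKM in siCNN3. The defining macrophage genes Ptprc, Adgre1, Csf1r and Itgam had no row. Of the 7 markers, 6 were lower in every siCNN3 library than in every siNC library, compared with 9.35% of all tested genes. The globin genes Hba-a1, Hba-a2, Hbb-bs and Hbb-bt were among these 6 and are not separate cases. Lyz2, lysozyme, was at 4.80, 1.65 and 1.13 FPKM with siNC, compared with 0.848, 1.12 and 0.481 FPKM with siCNN3 (adjusted p = 0.342, limma). Cd68, a lysosomal protein of macrophages, was at 3.60 to 5.39 FPKM with siNC, compared with 1.96 to 3.56 FPKM with siCNN3, and Cd14 was at 14.2 to 21.9 FPKM and at 12.3 to 15.7 FPKM. Of 8 fibroblast markers 4 were in the table and 0 were called, with sums of 39.2 to 42.8 FPKM and 29.6 to 42.8 FPKM. Cd34 made up most of these sums, and all 4 differences were below 0. Dpt, which encodes the matrix protein dermatopontin, was lower in every siCNN3 library, at 1.02 to 1.72 FPKM in siNC and 0.302 to 0.739 FPKM in siCNN3 (log2 fold change -0.57, adjusted p = 0.223 by limma). Of 6 endothelial markers only Tek was in the table, at 0.681 to 1.37 FPKM and at 0.733 to 1.24 FPKM. The part of these groups of RNA in the values of Mmp9, Mmp14 or any other gene described here was not tested. RNA of a marker gene does not show that its cell type was present. In bulk RNA, fewer cells in a given state and less RNA per cell cannot be told apart.

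A match to the seed of an siRNA is a further feature that can be read from the sequences, and these are shown because Mmp9 holds one. The antisense strands of the study's siRNAs are given 5′ to 3′ with bases 2 to 8, the seed, in capitals.
CNN3 siRNA1: uUGGUGCCaaugccuaggctt
CNN3 siRNA2: uUAACGCCaaugucaauggt
CNN3 siRNA3: uUCCGACCcauuggugccctt
NC siRNA: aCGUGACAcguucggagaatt
Mmp9 site: ctctactgGGCGTTAgggacaga
The capitals of the Mmp9 site are the bases that pair with the seed of CNN3 siRNA2. They lie at chr2:164955530-164955536 of GRCm38, in the 3′ UTR of Mmp9 within the last of its 13 exons, at positions 624 to 630 of 944. No other 3′ UTR of the 10 genes held a match to any of the 4 seeds. Of 11707 genes with a 3′ UTR, 1.03% held the match of CNN3 siRNA2, 9.003% that of CNN3 siRNA1, 1.14% that of CNN3 siRNA3 and 2.88% that of the NC siRNA. Whether CNN3 siRNA2 was in the sequenced cells is not stated in the sources used here, and the part of this site in the level of Mmp9 was not tested.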

How the data were processed

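RNA of C2C12 cells was sequenced in 3 siNC and 3 siCNN3 libraries. The authors deposited FPKM values of 24023 Ensembl transcripts. The submitters' processing notes name Bowtie 0.12.2 and the builds mm8 and mm10, with no role given. The program that made the FPKM and the read numbers are not given in the sources used here, so the depth is unknown and counting error cannot be computed. Total FPKM per library was 322621 to 355591.

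Identifiers were matched without version to GENCODE transcripts of GRCm38 (23949 matched, 74 did not), and FPKM were summed per symbol. Genes that averaged 0.5 FPKM or more across all 6 libraries were tested as log2(FPKM + 1), which understates changes of low genes, with limma 3.58.1 in R 4.3.3 (mean-variance trend, all 6 libraries, Benjamini-Hochberg adjustment over 11593 genes, threshold 0.05). Exact permutation tests were two-sided. Sequences were read with Python 3.11.15 from RefSeq tables and the study's siRNA list. By the general methods of the study, cells were transfected after seeding and, for differentiation, a further time later.

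The genes and lists were chosen with earlier results of these data known. Named are all MMP and TIMP genes given, Cnn3, the called genes of each list (at most 4 by size of change, or, where none was called, those with the lowest p), 4 muscle markers and the 3 genes most like the MMP or TIMP gene with the lowest p. Interferon genes are given by counts and sums only, 1 called inducer is counted but not reported here by name or value, and other names were chosen after their values were seen. No source says that replicates were separate cultures. The p-values therefore set each difference against a spread between libraries that may be technical. In limma that spread is moderated over all tested genes. Alternatives covered pseudocount, filter, scaling, a replicate block, the test, single transcripts and each library left out.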

Additional observations from a re-analysis of the deposited data

How the results depend on the processing

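Of 142 alternative values of the tested MMP and TIMP genes over 16 settings, 133 kept their direction and their side of the threshold, 2 passed it and 7 turned in sign. The 2 were Mmp14 with median-of-ratios scaling and with quantile normalization, which made the number of MMP and TIMP genes called lower 1 in each. The turns were all of Timp3 and Mmp10, which lay near 0. Timp3 was at -0.0196 with median-of-ratios scaling, at -0.0739 with quantile normalization and at -0.13 to 0.15 with single libraries left out. Mmp10 was at -0.0359 with quantile normalization and at -0.23 to 0.25 with single libraries left out. Mmp28 was at -0.0100 with median-of-ratios scaling, -0.0316 with quantile normalization, -0.0147 with each transcript tested on its own and -0.0176 to 0.0948 with single libraries left out. The causes were not tested. Cnn3 was at -1.46 to -0.95 with single libraries left out, and passed the threshold only without replicate 2 of siCNN3.

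Over all genes, 200 were called higher and 39 lower. The numbers were 62 and 6 with a replicate block, 0 and 0 with a Student's test of each gene and 92 and 16 with each transcript tested on its own. Median-of-ratios scaling called 63 lower and quantile normalization 93. With single libraries left out, 16 to 443 were called higher and 4 to 159 lower, the most without replicate 3 of siCNN3 and the fewest higher without replicate 3 of siNC. The share of calls that were higher was 83.7%, 77.6% with median-of-ratios scaling and 68.2% with quantile normalization, with 218 and 199 called higher in these, as the median of all genes moved from 0.03 to -0.0032 and -0.05.

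The replicate numbers showed no clear pairing of the libraries. Deviations of same-numbered libraries from their group means correlated at -0.278, 0.314 and -0.0247, and not every library correlated best with its own number. The highest value was 0.442, for replicate 1 of siNC with replicate 3 of siCNN3. Such deviations cancel out within a group, so these values depend on each other and cannot exclude pairing. With the replicate block the adjusted p by limma was 0.154 for Mmp14 and 0.246 for Mmp9, and the calls of Adam19 (0.101), Col12a1 (0.0557), Col6a2 (0.0621), Col6a3 (0.0992), Il6 (0.0557) and Myh3 (0.0736) were lost. With each transcript tested on its own, those of Adam19 (0.0856), Col12a1 (0.0657), Col6a2 (0.134), Col6a3 (0.108), Il6 (0.0728) and Myh3 (0.0732) were lost, and without a trend those of Col12a1 (0.0511) and Col6a3 (0.0526). A filter at 5 FPKM gave no value for Mmp3 and Mmp10. Depth is unknown, which limits the genes near 1 FPKM most.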
